A study of Mus musculus with 24 samples.

Results

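Lard and fish oil were compared as the fat of the diet in the epididymal white fat of germ-free mice, on 12 of the 24 arrays of the series: 6 mice fed lard and 6 fed menhaden fish oil, chosen by the diet and the bacterial status in the sample labels. All 12 were wild-type C57Bl/6 males raised without microbes, which ate diets of equal energy with 45% of the kcal from fat and were fasted for 4 h before the tissue was taken. The labels give 11 weeks both as the age of the mice and as the time on the diet, and do not say whether that age is the one at the start of the diet. The other 12 mice were conventional animals of the same strain, sex and age on the same diets, and enter here through the shared estimate of spread and through the test of whether the diet effect differed between germ-free and conventional mice. From each mouse 250 ng of total RNA were amplified, labelled with biotin and hybridised to a one-colour Affymetrix whole-transcript array, whose deposited values are RMA log2 signals. Each array is 1 mouse per the labels, and p-values measure the spread between mice. Which mice shared a cage, an isolator or a litter, and how much fat each mouse carried, are details that the sources used here do not give, so diet cannot be told apart from housing where the diets were housed apart. Every change below is the mean log2 signal with lard minus that with fish oil, with its standard error from limma, so that 1 stands for 2-fold. P-values were adjusted by the Benjamini-Hochberg method across the 19938 genes tested, two-sided, with a threshold of 0.05.

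Lard is rich in saturated and monounsaturated fatty acids, and menhaden oil in the long-chain omega-3 fatty acids eicosapentaenoic and docosahexaenoic acid. White fat stores triglyceride in adipocytes, and as a depot expands macrophages gather around dying adipocytes, take up their lipid and break it down in lysosomes. Omega-3 fatty acids are known as ligands of the receptor FFAR4 and of nuclear receptors of the PPAR family, as precursors of resolvins, and as inhibitors of SREBP, the transcription factors that switch on fatty acid and cholesterol synthesis. In a germ-free mouse no live gut bacteria can add to these signals.

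In all, 9468 of the 19938 genes tested passed the threshold, 47.5% of them; 4072 (20.4%) were higher and 5396 (27.1%) lower with lard. These shares are the background against which every count below is read. The lists and their members were chosen with earlier results of these data known, so their counts are descriptions and not tests. A list called in 47.5% of its members or fewer was called no more often than all genes. The 6 lard-fed mice lay wholly above the 6 fish oil-fed mice in 2673 genes (13.4%) and wholly below them in 2217 (11.1%). A change of at least 2-fold was reached by 348 genes that were higher and 150 that were lower. The split of the calls varied with the level of the genes. In the dimmest quintile, by mean signal, 74 genes were higher and 1100 lower, and in the brightest quintile 1540 were higher and 1013 lower. The last 2 counts are 38.6% and 25.4% of the brightest quintile. The shares of all genes called and higher are therefore a low background for lists of bright genes. Shares matched by level were not computed for the lists. The medians of the arrays, over all probe sets, lay from 7.17 to 7.20 with fish oil and from 7.09 to 7.14 with lard, and the median change of all genes tested was -0.08. With every array centred on its median, which moved this value by 0.06, the split turned to 4808 higher and 3313 lower, or 59.2% of the calls higher against 43%.

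**Figure D1:**
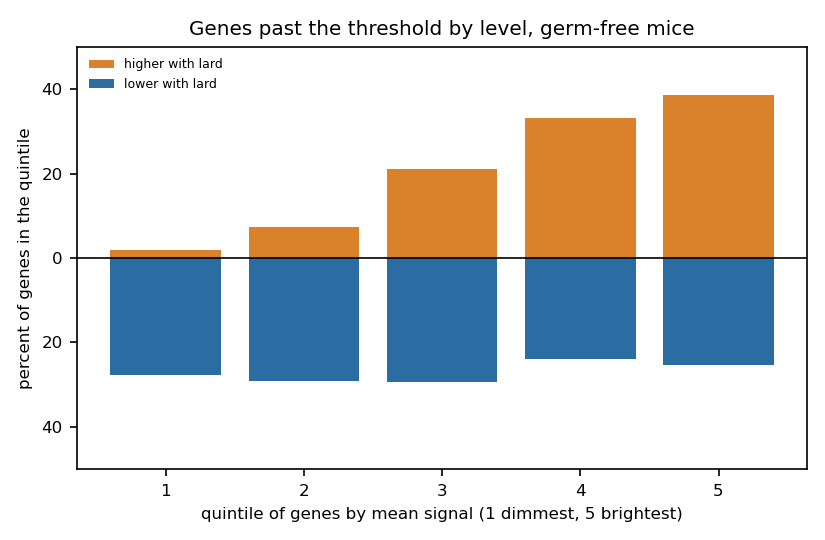
Share of genes in each quintile of mean signal, from the dimmest (1) to the brightest (5), that were higher (upward bars) or lower (downward bars) with lard in germ-free mice, in percent of the genes of that quintile. Higher calls were 1.86% of the dimmest and 38.6% of the brightest quintile, while lower calls lay between 23.9% and 29.3% in every quintile.

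The tissue carried the label's markers. Adiponectin and the other 14 measured markers of mature adipocytes averaged 12.81 to 13.02 log2 with fish oil and 12.49 to 12.91 with lard, near the top of the array's range. Transcripts of other organs were also seen, and not evenly. A list of 24 liver transcripts averaged 8.06 to 9.27 in the fish oil-fed mice and 6.49 to 7.51 in the lard-fed mice, with no overlap. A list of 18 intestinal epithelium transcripts lay from 6.13 to 6.35 with fish oil, but at 9.37 in lard-fed mouse 4, 6.77 in mouse 5 and 6.60 in mouse 2, against 5.97, 6.06 and 6.38 in mice 1, 3 and 6. Mouse 6 thus also stood above the fish oil range, and it was kept where mice 2, 4 and 5 were left out. Lists of exocrine pancreas, testis and skeletal muscle overlapped between the diets, at 6.27 to 6.58, 5.74 to 6.02 and 6.77 to 7.09, as did that of the epididymis, at 4.86 to 5.68. Of these lists, 0 higher and 1 lower of 11 pancreas genes passed, 0 and 2 of 10 testis genes, 1 and 3 of 8 muscle genes, and 0 and 4 of 12 epididymis genes, the last with changes of -0.75 to -0.05. In that order the shares called were 9.09%, 20%, 50% and 33.3%, against 47.5% of all genes tested. With median centring 1 epididymis and 0 testis genes were lower, and 0 of each without lard-fed mice 2, 4 and 5. Without lard-fed mouse 2 or 5 alone 1 epididymis gene was lower. Counts are therefore also given in brackets, in the order of the counts before them, without lard-fed mice 2, 4 and 5, called the 9-mouse comparison, where 5278 genes (26.5% of all tested) differed, 2891 of them higher and 2387 lower, and with the mean of the liver list as a covariate, where 4936 (24.8%) differed, 2226 of them higher and 2710 lower. The covariate separates the diets by itself, and with it the standard error of the diet effect grew 1.78-fold in the median gene; without the 3 mice it grew 1.25-fold. The part of liver or gut transcripts in the other changes was not tested further.

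**Figure D2:**
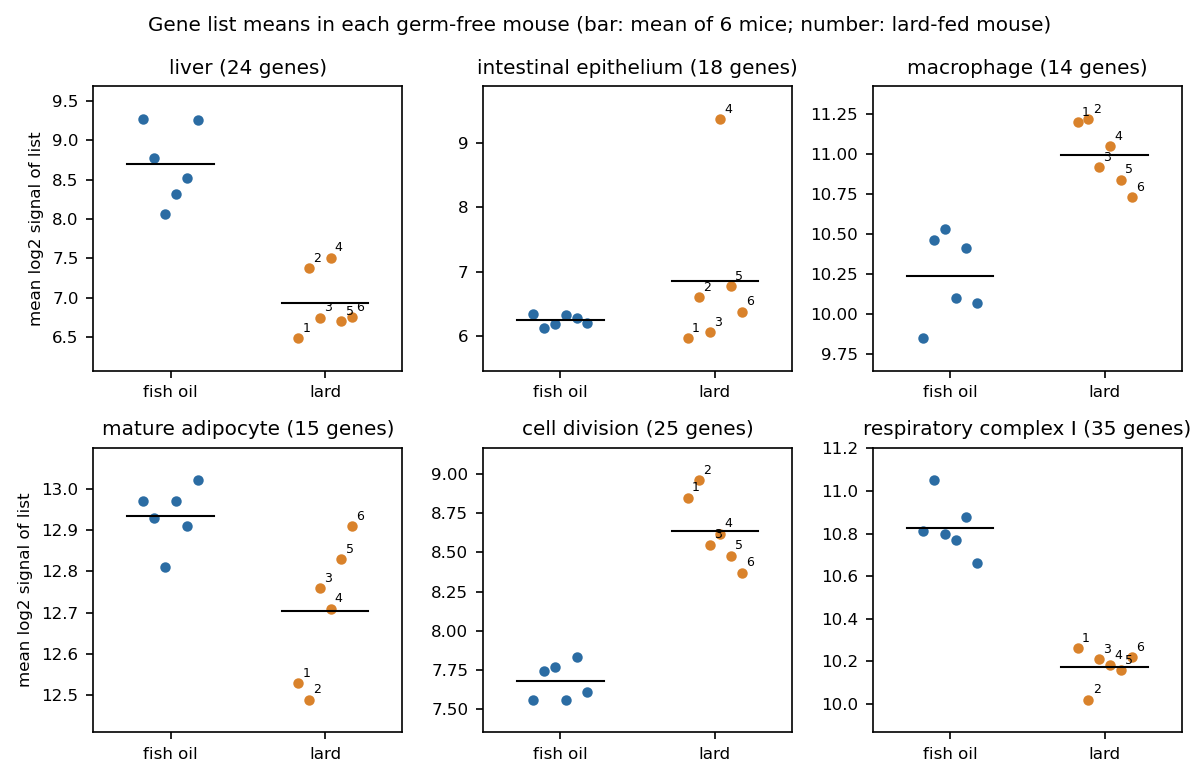
Mean log2 signal of 6 gene lists in each germ-free mouse, fish oil in blue and lard in orange, with the mouse number beside each lard point and a bar at the mean of each group. The liver, cell division, macrophage and complex I lists separate the diets with no overlap, the mature adipocyte means overlap, and lard-fed mouse 4 stands at 9.37 on the intestinal list.

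Among the largest rises were receptors and genes of ion handling. The rankings of rises, falls and differences by bacterial status leave out predicted, clone, olfactory, vomeronasal, receptor segment and similar gene names. Oxtr, the oxytocin receptor, lay at 7.88 to 8.37 (median 8.13) with fish oil and at 10.77 to 12.03 (median 11.61) with lard. It thus stood 10.1-fold higher in lard-fed mice, with a change of 3.34 ± 0.21 (adjusted p = 2.8e-10). No lard-fed mouse came near the fish oil range. Gpr50, an orphan relative of the melatonin receptors, had the largest rise of the genes ranked, 29.7-fold, from a range of 6.05 to 8.29 (median 7.12) to one of 11.77 to 12.30 (median 12.03) log2. The spread in Gpr50 lay on the fish oil side, where mice differed by over 2 log2, while the lard-fed mice lay within 1 log2 of each other. Trdn, triadin, a partner of the calcium release channel in muscle, was at 7.01 to 7.85 (median 7.51) with fish oil and 9.77 to 10.76 (median 10.05) with lard (2.66 ± 0.21). Slc5a7, the choline transporter, rose by 2.50 ± 0.38 and Cdkl4, a kinase related to cyclin-dependent kinases, by 2.53 ± 0.22. Mrc2, the collagen uptake receptor Endo180, had one of the tightest changes, from a range of 7.80 to 8.56 (median 8.35) to one of 10.33 to 10.63 (median 10.42), or 2.15 ± 0.14 (adjusted p = 3.5e-10).

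Several of the 20 largest rises were genes of blood cells. Cd72, a coreceptor of B cells also found on macrophages, lay at 7.29 to 8.85 (median 8.21) with fish oil and 9.60 to 11.34 (median 10.39) with lard, 5.02-fold higher. Rgs18, a regulator of G protein signalling in platelets and myeloid cells, was 5.03-fold higher, and the purinergic receptor P2ry10b 4.29-fold higher. Stap1, a signalling adaptor, rose by 1.95 ± 0.34. Tnip3, which restrains NF-kappaB, rose by 2.74 ± 0.27, and Lipf, gastric lipase, by 2.68 ± 0.32. Dhrs9, a retinol dehydrogenase, and Ddah1, which breaks down an inhibitor of nitric oxide synthase, rose by 2.01 ± 0.33 and 1.97 ± 0.21. Myh15, a myosin heavy chain, rose by 2.13, Zranb3, a DNA repair helicase, by 2.01 and the serpin Serpinb9b by 1.95. The lard-fed mice lay wholly above the fish oil-fed mice in 17 of the 20, and 17 of the 20 also rose in conventional mice.

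The 3 exceptions were gut genes. Sis, sucrase-isomaltase of the intestinal brush border, lay at 4.10 to 4.41 (median 4.23) with fish oil and 4.20 to 11.30 (median 5.71) with lard, Fabp2, the intestinal fatty acid binding protein, at 4.89 to 6.04 (median 5.03) and 4.60 to 12.42 (median 7.31), and Zg16, a goblet cell protein, at 4.72 to 5.27 (median 5.07) and 5.03 to 11.74 (median 7.22). In each the lowest lard-fed mouse lay within or below the fish oil range and the highest, mouse 4, more than 5 log2 above it. In the 9-mouse comparison the changes of Sis, Fabp2 and Zg16 were 0.27, 0.20 and 0.54 (adjusted p = 0.145, 0.731 and 0.124). Lard-fed mouse 6, which stays in that comparison, lay at 5.02, 6.51 and 6.53 on these genes, above every fish oil-fed mouse. Of the 18 intestinal genes 3 were higher and 1 lower (1 and 2 in the 9-mouse comparison, 5 and 0 with the liver covariate). Called were 22.2% of this list, against 47.5% of all genes tested. With lard-fed mouse 1, 3, 4 or 6 left out alone 5 to 7 were higher.

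The largest falls were of mixed origin. Fam13a, a gene of adipocytes tied to insulin signalling and fat distribution, lay at 11.78 to 12.22 (median 12.09) with fish oil and 8.53 to 9.37 (median 8.89) with lard. That is 8.93-fold lower, a change of -3.16 ± 0.30 (adjusted p = 5e-08), with no overlap. Gsta4, the glutathione transferase that clears the lipid peroxidation product 4-hydroxynonenal, was at 10.31 to 10.63 (median 10.56) and 7.57 to 8.28 (median 8.17), 5.58-fold lower. The carboxylesterases of fat and liver fell too. Ces1f had a change of -2.00 ± 0.27 (adjusted p = 3.8e-06) and Ces1d, which hydrolyses triglyceride in adipocytes, one of -1.32 ± 0.23 (adjusted p = 6.6e-05), from a range of 13.13 to 13.43 (median 13.23) to one of 11.50 to 12.20 (median 12.02). Acsm3, a medium-chain acyl-CoA synthetase, changed by -2.34 ± 0.34, the cytochrome P450 Cyp2e1 by -2.05 ± 0.41 and Orm3, an acute-phase protein, by -1.96 ± 0.43. In each of these 7 the fish oil-fed mice lay wholly above the lard-fed mice. With the liver covariate the changes of Fam13a (-2.02) and Gsta4 (-2.04) passed, and those of Acsm3 (-1.08), Ces1f (-1.11), Ces1d (-0.95), Cyp2e1 (-1.60) and Orm3 (-2.01) did not (adjusted p from 0.0593 to 0.134). Cyp2e1 is itself a member of the liver list.

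The other large falls were proteins that the liver secretes. Alb, albumin, lay at 11.70 to 12.88 (median 12.32) with fish oil and 6.40 to 10.84 (median 8.22) with lard (change -3.78 ± 0.62, adjusted p = 3.7e-05). Serpina1c, an alpha-1-antitrypsin, lay at 8.41 to 10.77 (median 9.73) and 3.91 to 6.93 (median 5.00), and Mup3, a major urinary protein, at 8.34 to 11.02 (median 9.64) and 5.57 to 7.09 (median 6.16). Within the lard group albumin spread over more than 4 log2, against less than 2 within the fish oil group. Changes of -3.01 for Fgb and -2.49 for Fgg, chains of fibrinogen, -2.84 for Apoa2, -2.56 for transthyretin, -2.47 for fetuin-A, -2.31 and -2.10 for the protease inhibitors Pzp and Mug1, -1.96 for kininogen, -2.10 for hepcidin and -1.96 for the plasma carboxylesterase Ces1c completed the set. Fabp1, the fatty acid binding protein of liver and gut, changed by -2.32 ± 0.61 (adjusted p = 0.00361), and its groups overlapped, with its highest lard-fed mouse at 10.02. With lard, 23 of the 24 liver transcripts were lower and 0 higher, with a median change of -1.48 (24 and 0 in the 9-mouse comparison, 1 and 1 with the liver covariate). The covariate is the mean of these same 24 transcripts, so the loss of their calls with it was built in and is no test. In the conventional mice 2 of the 24 were higher with lard and 1 lower. Of the 20 largest falls 19 did not overlap between the groups, 6 were also lower in conventional mice and 14 differed by bacterial status.

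**Figure D3:**
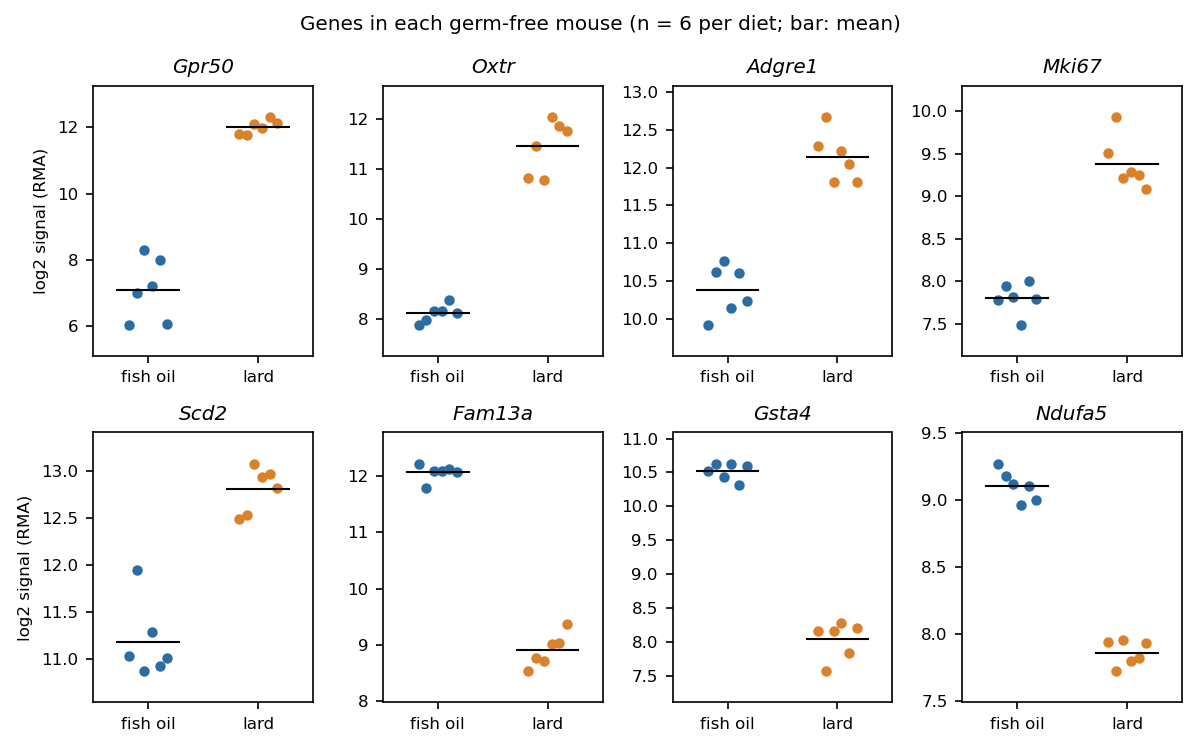
Log2 signal of 8 genes in each of the 6 fish oil-fed (blue) and 6 lard-fed (orange) germ-free mice, with a bar at each group's mean. In all 8 panels the groups do not overlap: Gpr50, Oxtr, Adgre1, Mki67 and Scd2 are higher with lard, and Fam13a, Gsta4 and Ndufa5 lower.

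Genes of macrophages were higher with lard. Of 14 macrophage markers 11 were higher and 1 lower (9 and 1 in the 9-mouse comparison, 4 and 0 with the liver covariate). The groups did not overlap in 7 of those that were higher, and the median change was 0.78. The 1 that was lower was Mertk, a receptor for dead cells, and not with median centring. Adgre1, a classical macrophage surface marker, lay at 9.92 to 10.76 (median 10.41) with fish oil and 11.81 to 12.67 (median 12.14) with lard, 3.4-fold higher. Csf1r, the receptor for the macrophage growth factor, rose by 1.29 ± 0.15 (adjusted p = 7e-07) and Itgam, CD11b, by 1.25 ± 0.19 (adjusted p = 1.2e-05). More macrophages in a depot and more of these RNAs per macrophage cannot be told apart in RNA from whole tissue, here and for every cell type below.

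Macrophage subsets were counted apart. Markers of lipid-associated macrophages, the cells that surround dying adipocytes, were higher in 6 of 12 and lower in 0 (5 and 0 in the 9-mouse comparison, 2 and 1 with the liver covariate). Dcstamp, which drives the fusion of macrophages into giant cells, lay at 6.65 to 6.95 (median 6.76) with fish oil and 7.57 to 8.97 (median 8.10) with lard (change 1.50 ± 0.25, adjusted p = 4e-05). The lipid receptor Trem2 rose by 1.14 ± 0.29, Itgax, CD11c, by 1.35 ± 0.31 and Atp6v0d2, of the lysosomal proton pump, by 1.31 ± 0.36. Of 9 markers of resident macrophages 2 were higher and 2 lower (1 and 1 in the 9-mouse comparison, 0 and 0 with the liver covariate). Called were 44.4% of this list, against 47.5% of all genes tested. Mrc1, CD206, and the folate receptor Folr2 rose by 0.66 and 0.89, whereas Cd163, the haptoglobin receptor, and Timd4, which binds dead cells, changed by -0.67 and -0.27. All 4 of these overlapped between the groups. Atp6v0d2, Mrc1 and Timd4 did not pass in the 9-mouse comparison (changes of 1.18, 0.48 and -0.25, adjusted p = 0.0599, 0.0584 and 0.193). Without fish oil-fed mouse 2, 3, 4 or 5 or lard-fed mouse 1, 2, 4 or 5, Timd4 had an adjusted p of 0.0555 to 0.117, and with median centring it was 0.107.

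Receptors for antibodies and their signalling chain, which macrophages share with B and mast cells, were higher in 11 of 14 and lower in 0 (10 and 0 in the 9-mouse comparison, 2 and 0 with the liver covariate), with a median change of 0.69. Fcgr1, the high-affinity IgG receptor, rose by 1.16 ± 0.21 (adjusted p = 0.0001). The adaptor Blnk lay at 8.99 to 9.64 (median 9.26) with fish oil and 10.20 to 10.96 (median 10.59) with lard, and Pik3cg, the phosphoinositide kinase of leukocytes, rose by 1.09 ± 0.16 and Vav1 by 0.86 ± 0.18. Of 17 complement genes 9 were higher and 1 lower (9 and 1 in the 9-mouse comparison, 3 and 1 with the liver covariate). They included the first component C1qb, from a range of 11.10 to 11.90 (median 11.65) to one of 12.54 to 13.09 (median 12.87), the anaphylatoxin receptor C5ar1 (1.09 ± 0.20) and Itgb2, the shared chain of the complement receptors (1.17 ± 0.17).

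Genes of the lysosome rose together. Of 28 genes of lysosomal enzymes, membrane proteins and the proton pump 25 were higher with lard and 0 lower (20 and 0 in the 9-mouse comparison, 5 and 0 with the liver covariate), 20 with no overlap. The list mean lay from 11.13 to 11.33 with fish oil and from 11.55 to 11.96 with lard. The proton pump subunits Atp6v1b2 and Atp6v1a, which acidify the lysosome, rose by 1.14 ± 0.16 (adjusted p = 3.9e-06) and 1.06 ± 0.17 (adjusted p = 2.6e-05). Ctsh, a cathepsin, rose by 1.10 ± 0.15 and Gla, alpha-galactosidase, by 0.95 ± 0.26. The change of Gla was 0.85 in the 9-mouse comparison and did not pass (adjusted p = 0.0589). Of all 21 measured subunits of the proton pump, counted by their names after their values were seen, 9 were higher and 4 lower, with a median change of 0.09, from -0.57 for Atp6v0e2 to 1.31 for Atp6v0d2.

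Few markers of T and NK cells passed. Of 11 T cell and 10 NK cell markers 0 passed in either direction by limma, and Cd3e, a chain of the T cell receptor complex, changed by -0.11 ± 0.12 (adjusted p = 0.473). At an unadjusted p under 0.05 there were 2 T cell and 1 NK cell markers. Under other settings a few passed: 1 T cell marker was lower on the germ-free arrays alone, with the liver covariate, with the low-value filter or with a replicate block, 2 with array weights and 3 without lard-fed mouse 6, and 1 NK cell marker was higher with median centring, array weights or the block and 2 after quantile normalization. The lard-fed mice lay at 7.51 to 8.31 (median 7.60) on Cd3e and the fish oil-fed mice at 7.54 to 8.15 (median 7.78). Of 10 B and plasma cell markers 1 was higher and 4 lower (0 and 0 in the 9-mouse comparison, 0 and 5 with the liver covariate), among them Jchain, the joining chain of secreted antibodies, at -1.30 ± 0.49. The lower count was 2, 0 and 1 without fish oil-fed mouse 3, 4 or 5, 1 without lard-fed mouse 2 and 2 with median centring. Jchain had an adjusted p of 0.0506 to 0.0893 without fish oil-fed mouse 3, 4 or 5 or lard-fed mouse 2, 3 or 6. Of 11 monocyte and neutrophil markers 1 was higher and 5 lower (1 and 3 in the 9-mouse comparison, 1 and 1 with the liver covariate), with S100a9 at -0.79 ± 0.19 and Cxcr2, the neutrophil chemokine receptor, at -0.84 ± 0.22, while Ccr2, the receptor that draws monocytes into tissue, lay at 7.82 to 8.32 (median 8.04) with fish oil and 8.85 to 9.86 (median 9.36) with lard (change 1.30 ± 0.15, adjusted p = 7e-07). Of 11 mast cell and eosinophil markers 2 were higher and 1 lower (2 and 0 in the 9-mouse comparison, 0 and 0 with the liver covariate), with 5 higher without lard-fed mouse 6. Called were 27.3% of this list, against 47.5% of all genes tested. Cpa3, the mast cell carboxypeptidase, rose by 1.92 ± 0.46 (adjusted p = 0.00159), with a lard range of 7.80 to 10.96 (median 9.30) that overlapped the fish oil range of 7.13 to 8.21 (median 7.48).

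The other cells of the depot were endothelial cells, progenitors and the mesothelium that covers it. Of 13 endothelial markers 0 were higher and 4 lower (0 and 1 in the 9-mouse comparison, 0 and 1 with the liver covariate). Called were 30.8% of this list, against 47.5% of all genes tested. The lower count was 2 without lard-fed mouse 1 or 4 and 9 without lard-fed mouse 6. Gpihbp1, which holds lipoprotein lipase on capillaries, changed by -0.90 ± 0.22 (adjusted p = 0.00192), and Pecam1, CD31, by -0.23 ± 0.16 (adjusted p = 0.214, and 0.05 without lard-fed mouse 6). Lard-fed mice spread from 9.37 to 10.80 on Gpihbp1, into the fish oil range. Of 14 progenitor markers 4 were higher and 0 lower (3 and 0 in the 9-mouse comparison, 1 and 2 with the liver covariate). The share called was 28.6%, again below the 47.5% of all genes tested. Pdgfrb, a growth factor receptor of perivascular cells, rose by 0.92 ± 0.08 (adjusted p = 2.7e-08) with no overlap, and Pdgfra, Cd34 and Fap by 0.62, 0.47 and 0.45. Of 13 mesothelial markers 9 fell and 0 rose (5 and 0 in the 9-mouse comparison, 8 and 0 with the liver covariate), with Wt1, a transcription factor of the mesothelium, at 8.83 to 9.21 (median 9.07) with fish oil and 8.14 to 8.47 (median 8.19) with lard, and Msln, mesothelin, at 9.08 to 9.76 (median 9.28) and 7.97 to 8.88 (median 8.63). Of 6 smooth muscle markers 1 was higher and 4 lower (1 and 1 in the 9-mouse comparison, 1 and 3 with the liver covariate). Pdgfra and Msln did not pass in the 9-mouse comparison (changes of 0.41 and -0.58, adjusted p = 0.0979 and 0.0818).

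Inflammatory mediators split by family. Of 25 chemokines and their receptors 5 were higher and 5 lower (5 and 3 in the 9-mouse comparison, 2 and 6 with the liver covariate), with a median change of -0.04. That is 40% of the list, against 47.5% of all genes tested, so as a list chemokines were not called more often. Ccl9, a myeloid chemokine, lay at 10.30 to 10.95 (median 10.60) with fish oil and 11.45 to 11.96 (median 11.69) with lard. Cxcl13, which draws B cells into milky spots, fell from a range of 8.95 to 10.72 (median 10.15) to one of 7.22 to 9.41 (median 8.28) (change -1.67 ± 0.42, adjusted p = 0.00217), and the interferon-induced Cxcl9 changed by -0.94 ± 0.20 (adjusted p = 0.0007); both overlapped between the groups. Tnf rose by 0.36 ± 0.11 (adjusted p = 0.00887), with lard-fed mice at 7.73 to 8.09 (median 7.88) just above the fish oil-fed mice at 7.31 to 7.72 (median 7.53). Its change was 0.35 in the 9-mouse comparison and did not pass (adjusted p = 0.0712).

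In the interleukin-1 system the cytokines fell and the antagonist rose. Il1a lay at 5.29 to 6.67 (median 6.18) with fish oil and 4.76 to 5.23 (median 4.99) with lard (change -1.12 ± 0.16, adjusted p = 5e-06). Il1b changed by -0.77 ± 0.19 (adjusted p = 0.00224), from a range of 6.28 to 7.86 (median 7.07) to one of 6.18 to 6.48 (median 6.26), with the lard-fed mice at the lower edge of the fish oil range. Il1rn, which blocks the receptor of both, rose 3.34-fold, from a range of 8.05 to 9.02 (median 8.40) to one of 9.66 to 10.93 (median 10.08). The DNA sensor Aim2 and the flagellin and secretion system sensor Nlrc4, which activate inflammasomes, rose by 1.10 ± 0.16 (adjusted p = 1e-05) and 1.04 ± 0.22 (adjusted p = 0.00054). In all, 6 of 15 genes were higher and 4 lower (6 and 3 in the 9-mouse comparison, 2 and 4 with the liver covariate). Of 16 genes of NF-kappaB feedback 9 were higher and 2 lower (5 and 1 in the 9-mouse comparison, 2 and 3 with the liver covariate). Nfkbia, the inhibitor that NF-kappaB induces, changed by -0.58 ± 0.08 (adjusted p = 7.9e-06) with no overlap, while its relative Nfkbib rose by 0.41 ± 0.09. With the liver covariate the change of Nfkbib was -0.03 (adjusted p = 0.853), and that of Nfkbia -0.57 (adjusted p = 0.0113). Of 15 genes of type 2 immunity 2 were higher and 4 lower (1 and 1 in the 9-mouse comparison, 1 and 3 with the liver covariate), or 40% called against 47.5% of all genes tested. Arginase Arg1 changed by -0.38 ± 0.10 (adjusted p = 0.00399), the interleukin-4 receptor Il4ra by -0.39 ± 0.11 and Retnla by -0.47 ± 0.31 (adjusted p = 0.214). Il4ra did not pass in the 9-mouse comparison (change of -0.34, adjusted p = 0.0764). With the liver covariate the change of Arg1 was -0.36 and did not pass (adjusted p = 0.14).

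Genes of eicosanoid synthesis, which turn arachidonic acid and omega-3 fatty acids into signals, were higher in 15 of 33 and lower in 7 (9 and 2 in the 9-mouse comparison, 9 and 3 with the liver covariate). The lower count was 3 without lard-fed mouse 2 and 2 with median centring. The prostaglandin and thromboxane branch moved in both directions. Tbxas1, thromboxane synthase, lay at 8.65 to 9.11 (median 8.87) with fish oil and 9.96 to 10.79 (median 10.33) with lard, 2.92-fold higher. Hpgds, the prostaglandin D synthase of blood cells, rose by 1.00 ± 0.35 (adjusted p = 0.0235), and Ptges, the inducible prostaglandin E synthase, changed by -0.90 ± 0.16 (adjusted p = 9.8e-05). Ptgs2, the inducible cyclooxygenase, changed by -0.35 ± 0.14 (adjusted p = 0.0365), from a range of 6.79 to 7.78 (median 7.00) to one of 6.61 to 6.90 (median 6.70). Ephx1, an epoxide hydrolase of xenobiotics and lipids, rose by 1.19 ± 0.10 (adjusted p = 9.3e-09) with no overlap, and Alox15, a lipoxygenase of resolvin synthesis, changed by -0.61 ± 0.29 (adjusted p = 0.0794). Hpgds and Ptgs2 did not pass in the 9-mouse comparison (changes of 0.91 and -0.38, adjusted p = 0.136 and 0.111). The adjusted p of Hpgds was 0.0525 to 0.0636 without fish oil-fed mouse 4 or 6 or lard-fed mouse 1 or 2. Without fish oil-fed mouse 3 or lard-fed mouse 2, 3, 4 or 6, Ptgs2 had an adjusted p of 0.0569 to 0.117, and 0.0903 with median centring.

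Lipid synthesis did not move as 1 pathway. Of 14 genes of fatty acid synthesis 3 were higher with lard and 7 lower (2 and 5 in the 9-mouse comparison, 3 and 0 with the liver covariate). Acaca, acetyl-CoA carboxylase, which makes the building block malonyl-CoA, lay at 10.92 to 11.96 (median 11.75) with fish oil and 10.31 to 10.76 (median 10.59) with lard, and Thrsp, a regulator of lipogenesis, at 11.60 to 12.62 (median 12.18) and 9.38 to 11.55 (median 10.70). Fasn, fatty acid synthase, changed by -0.35 ± 0.12 (adjusted p = 0.0238) with overlapping groups, while Acss2, which makes acetyl-CoA from acetate, rose by 0.79 ± 0.17 (adjusted p = 0.00063). Fasn had an adjusted p of 0.0633 to 0.074 without fish oil-fed mouse 2 or 4 or lard-fed mouse 1 or 2, and 0.0676 with median centring and 0.0782 in the 9-mouse comparison. Of 21 desaturases and elongases 8 were higher and 2 lower (7 and 1 in the 9-mouse comparison, 3 and 0 with the liver covariate). Scd2, which makes monounsaturated fatty acids outside the liver, rose 3.08-fold, from a range of 10.87 to 11.95 (median 11.02) to one of 12.49 to 13.08 (median 12.88), whereas Scd1 was near the top of the range in both groups and changed by 0.08 ± 0.06 (adjusted p = 0.276). Fads2, the delta-6 desaturase, changed by -0.06 ± 0.10 (adjusted p = 0.612).

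Of 21 genes of cholesterol synthesis and uptake 12 rose and 0 fell (9 and 0 in the 9-mouse comparison, 6 and 0 with the liver covariate), with a median change of 0.47. Several of them catalyse steps after squalene. Lss, lanosterol synthase, lay at 8.02 to 8.57 (median 8.20) with fish oil and 9.30 to 9.80 (median 9.46) with lard, 2.37-fold higher, and the next enzyme Cyp51 at 7.64 to 8.36 (median 7.98) and 8.46 to 9.20 (median 8.83). Nsdhl, a sterol dehydrogenase, and Dhcr7, the last enzyme, rose by 0.89 ± 0.12 (adjusted p = 3.8e-06) and 0.84 ± 0.14 (adjusted p = 4e-05). None of these 4 overlapped between the groups. Genes of cholesterol efflux under the oxysterol receptor LXR were higher in 6 of 12 and lower in 2 (5 and 0 in the 9-mouse comparison, 6 and 0 with the liver covariate). Nceh1, which frees cholesterol from its esters in macrophages, rose 3.38-fold, from a range of 9.77 to 10.37 (median 9.91) to one of 11.25 to 12.22 (median 11.68), the exporter Abcg1 by 1.07 ± 0.16 and the phospholipid transfer protein Pltp by 1.07 ± 0.12. Abca1, the exporter to apolipoprotein A-I, rose by 0.26 ± 0.07 (adjusted p = 0.00597), and did not pass in the 9-mouse comparison (0.16, adjusted p = 0.197) or after quantile normalization (0.16, adjusted p = 0.101).

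Genes of fat storage and release were lower more often than higher. Of 19 genes of lipolysis and the lipid droplet 10 were lower and 2 higher (8 and 2 in the 9-mouse comparison, 0 and 1 with the liver covariate). The groups did not overlap in 7 of those that were lower, and with median centring 4 were higher. G0s2, an inhibitor of the triglyceride lipase, changed by -0.72 ± 0.21 and Cidea, a droplet protein, by -0.75 ± 0.23. Of 15 mature adipocyte markers 8 were lower and 1 higher (7 and 1 in the 9-mouse comparison, 0 and 1 with the liver covariate). Plin4 lay at 12.86 to 13.16 (median 13.03) with fish oil and 12.12 to 12.70 (median 12.42) with lard, and Cebpa, a transcription factor of the adipocyte, changed by -0.58 ± 0.10 (adjusted p = 8.4e-05). Uptake and triglyceride synthesis went both ways, 6 of 19 higher and 5 lower (3 and 3 in the 9-mouse comparison, 5 and 1 with the liver covariate), with 3 lower after median centring. Acsl4, which activates arachidonic acid, rose by 0.81 ± 0.13 (adjusted p = 2e-05), and the acyltransferases of monoacylglycerol moved apart, Mogat1 by -1.44 ± 0.25 and Mogat2 by 1.00 ± 0.37 (adjusted p = 0.0293). G0s2, Cidea and Mogat2 did not pass in the 9-mouse comparison (changes of -0.57, -0.70 and 0.92, adjusted p = 0.118, 0.0864 and 0.152). The adjusted p of Mogat2 was 0.0517 to 0.0625 without fish oil-fed mouse 1, 3 or 6 or lard-fed mouse 3 or 4.

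The fall of respiratory chain genes was close to complete. Of 35 measured subunits of complex I, which passes electrons from NADH to ubiquinone, 34 were lower with lard and 0 higher (29 and 0 in the 9-mouse comparison, 25 and 0 with the liver covariate), against 27.1% lower among all genes. The groups did not overlap in 30 of them, and the median change was -0.62. Ndufa5 lay at 8.96 to 9.27 (median 9.11) with fish oil and 7.72 to 7.95 (median 7.88) with lard, 2.37-fold lower, and Ndufb8 at 10.58 to 11.13 (median 10.81) and 9.26 to 9.76 (median 9.67). Of 36 genes of complexes II to V 31 were lower and 1 higher (29 and 0 in the 9-mouse comparison, 22 and 2 with the liver covariate), with a median change of -0.60. Uqcr11, of complex III, changed by -1.25 ± 0.15 (adjusted p = 1e-06), Cox4i1, of cytochrome oxidase, by -0.86 ± 0.09 (adjusted p = 1.7e-07) and Atp5k, of ATP synthase, by -1.14 ± 0.17 (adjusted p = 1.2e-05). With median centring 32 of 35 and 29 of 36 were lower.

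Pathways that feed the chain were lower in part. Breakdown of branched-chain amino acids, a route that adipocytes use heavily, was lower in 16 of 20 genes and higher in 1 (13 and 0 in the 9-mouse comparison, 1 and 2 with the liver covariate), with a median change of -0.49. Bckdha, of the enzyme complex that commits these amino acids to oxidation, lay at 10.18 to 10.43 (median 10.33) with fish oil and 9.08 to 9.69 (median 9.52) with lard. Dbt, of the same complex, changed by -0.80 ± 0.15 (adjusted p = 0.00011) and Pccb, a propionyl-CoA carboxylase subunit, by -0.78 ± 0.12 (adjusted p = 1.2e-05). Of 25 genes of pyruvate oxidation and the citric acid cycle 13 were lower and 3 higher (10 and 1 in the 9-mouse comparison, 4 and 5 with the liver covariate). Pdhb, of pyruvate dehydrogenase, changed by -0.85 ± 0.10 (adjusted p = 7.5e-07), its kinase Pdk2 by -0.76 ± 0.14 and the mitochondrial pyruvate carrier Mpc1 by -0.75 ± 0.11.

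Genes of fatty acid oxidation moved in both directions. Cpt1a, which carries long-chain fatty acids into mitochondria, lay at 10.55 to 10.79 (median 10.73) with fish oil and 11.34 to 11.70 (median 11.52) with lard, 1.75-fold higher with no overlap. Eci1, an isomerase for unsaturated chains, changed by -0.88 ± 0.15 (adjusted p = 5.4e-05), the very-long-chain dehydrogenase Acadvl by -0.54 ± 0.10 and the electron carrier Etfa by -0.57 ± 0.09. Cpt2, which acts after Cpt1a on the inner membrane, was among the lower genes (-0.47 ± 0.11, adjusted p = 0.00108) and Acaa2, a thiolase of the last step, among the higher (0.18 ± 0.06, adjusted p = 0.00998); both were picked after their values were seen. The call of Acaa2 was lost in the 9-mouse comparison (0.16, adjusted p = 0.0835) and after quantile normalization (0.10, adjusted p = 0.172). In all, 3 of 18 genes were higher and 7 lower (2 and 6 in the 9-mouse comparison, 4 and 0 with the liver covariate), with 11 lower after quantile normalization. In peroxisomes, which shorten very long and branched chains, 4 of 24 were higher and 6 lower (4 and 3 in the 9-mouse comparison, 9 and 1 with the liver covariate), with 7 higher after median centring. Of this list 41.7% was called, against 47.5% of all genes tested. Phyh, which starts the breakdown of phytanic acid, lay at 11.52 to 11.60 (median 11.54) with fish oil and 10.28 to 10.55 (median 10.50) with lard, and Pex19, which imports membrane proteins, at 10.25 to 10.52 (median 10.38) and 10.93 to 11.52 (median 11.27). Acox3, an oxidase of branched chains, rose by 0.55 ± 0.07 (adjusted p = 8.8e-07) and Scp2 changed by -0.65 ± 0.14.

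Receptors for fatty acids were lower in 8 of 16 and higher in 1 (5 and 1 in the 9-mouse comparison, 4 and 0 with the liver covariate). Ffar4 lay at 8.34 to 8.81 (median 8.66) with fish oil and 7.78 to 8.35 (median 8.23) with lard (change -0.44 ± 0.11, adjusted p = 0.00242), its groups overlapping at their edges. Ffar2, a receptor for short-chain fatty acids, changed by -0.44 ± 0.12 (adjusted p = 0.00381) and Rxra, the partner of the PPARs, by -0.43 ± 0.10, while Ppara itself changed by -0.36 ± 0.15 (adjusted p = 0.0443). Cnr2, the cannabinoid receptor of leukocytes, was the 1 that rose, by 0.92 ± 0.18 (adjusted p = 0.00021). Of 14 PPAR target genes 1 was higher and 4 lower (1 and 4 in the 9-mouse comparison, 2 and 0 with the liver covariate), with 3 higher after median centring. Called were 35.7% of this list, against 47.5% of all genes tested. Cyp4a10 and Cyp4a14, omega-hydroxylases known as PPAR-alpha targets in liver, changed by -1.30 ± 0.21 and -1.53 ± 0.30; with the liver covariate the values were -0.49 and -0.53 and did not pass (adjusted p = 0.259 and 0.417). Acot2, a mitochondrial thioesterase, rose by 0.95 ± 0.14 (adjusted p = 1.1e-05). Ffar2 and Ppara did not pass in the 9-mouse comparison (changes of -0.37 and -0.42, adjusted p = 0.0559 and 0.0851). Without fish oil-fed mouse 1, 2, 5 or 6 or lard-fed mouse 1, 2, 3 or 5, Ppara had an adjusted p of 0.0632 to 0.0994, and 0.112 with median centring.

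Genes of insulin action were more often lower than higher. Of 21 genes of insulin action and glucose handling 10 were lower and 5 higher (7 and 4 in the 9-mouse comparison, 1 and 2 with the liver covariate). Irs1, the docking protein of the insulin receptor, lay at 9.65 to 10.49 (median 10.02) with fish oil and 8.46 to 9.06 (median 8.75) with lard, 2.43-fold lower. Pck1, which makes glycerol phosphate for triglyceride, changed by -1.48 ± 0.29 (adjusted p = 0.00019), and Slc2a1, the basal glucose transporter, rose by 0.74 ± 0.14 (adjusted p = 0.00013). The groups did not overlap in these 3. Of 16 adipokine and fat expansion genes 4 were higher and 7 lower (2 and 4 in the 9-mouse comparison, 1 and 0 with the liver covariate). Lep, leptin, lay at 12.75 to 12.95 (median 12.86) with fish oil and 13.08 to 13.30 (median 13.26) with lard (change 0.36 ± 0.12, adjusted p = 0.0193), and Adipoq, adiponectin, at 13.44 to 13.63 (median 13.58) and 12.75 to 13.30 (median 13.17) (change -0.47 ± 0.12, adjusted p = 0.00288). In both the groups were narrowly separate. Mest, an imprinted gene of fat mass expansion, rose 2.57-fold, and Nnat, neuronatin, and the adipokine Retn, changed by -0.84 ± 0.20 and -0.86 ± 0.19. Without lard-fed mice 2, 4 and 5 the change of Lep was 0.37 and did not pass (adjusted p = 0.0899). Of 13 genes of brown-like adipocytes 5 were lower and 0 higher (3 and 0 in the 9-mouse comparison, 1 and 1 with the liver covariate). Called were 38.5% of this list, against 47.5% of all genes tested. Ucp1, the uncoupling protein of brown fat, lay at 5.74 to 6.19 (median 5.98) and 6.01 to 6.31 (median 6.09) and changed by 0.14 ± 0.10 (adjusted p = 0.23, and 0.0309 after quantile normalization).

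Cell division genes rose together. All 25 measured genes of DNA replication and mitosis were higher with lard and 0 lower, against 20.4% higher among all genes, 22 of them with no overlap (23 and 0 in the 9-mouse comparison, 14 and 0 with the liver covariate). The median change was 0.96. Mki67, the proliferation marker Ki-67, lay at 7.49 to 8.01 (median 7.81) with fish oil and 9.08 to 9.93 (median 9.27) with lard, 2.98-fold higher, and Kif11, the motor that pushes spindle poles apart, at 6.45 to 6.93 (median 6.71) and 7.70 to 9.14 (median 8.35). Bub1, of the spindle checkpoint, rose by 1.73 ± 0.24 (adjusted p = 4.2e-06) and cyclin A2, Ccna2, by 1.70 ± 0.20 (adjusted p = 7.4e-07). Which cells of the depot divide cannot be read from whole tissue. The promoters of Mki67 and Kif11 are shown because genes of cell division are known to share a CCAAT box and a cell cycle homology region with the letters TTTGAA near their start sites. They are the 250 bases before the RefSeq start (GRCm38.p6), chr7:135716380-135716629 on the minus strand and chr19:37376132-37376381 on the plus strand, both written 5′ to 3′ along the gene, with matches to TTTGAA or CCAAT on either strand in capitals.
Mki67: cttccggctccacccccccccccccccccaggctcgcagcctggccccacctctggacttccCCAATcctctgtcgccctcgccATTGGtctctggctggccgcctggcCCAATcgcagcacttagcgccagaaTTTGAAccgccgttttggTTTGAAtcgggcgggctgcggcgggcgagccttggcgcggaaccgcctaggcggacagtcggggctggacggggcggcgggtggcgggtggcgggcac
Kif11: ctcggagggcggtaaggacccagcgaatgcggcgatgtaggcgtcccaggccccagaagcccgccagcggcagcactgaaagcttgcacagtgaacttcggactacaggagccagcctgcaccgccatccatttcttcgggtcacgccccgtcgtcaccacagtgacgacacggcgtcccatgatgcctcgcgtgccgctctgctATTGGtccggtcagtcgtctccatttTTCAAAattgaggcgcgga
Mki67 holds 2 matches to TTTGAA and 3 to CCAAT, and Kif11 holds 1 of each. In the RefSeq windows of 300 bases, from 250 before to 50 after the start, TTTGAA occurred in 10 and CCAAT in 18 of the 22 cell division genes with a window. Among all 15614 genes tested that had a window, 17.3% held TTTGAA and 41.7% CCAAT. A match is a description of letters, not a site shown to be bound.

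Genes of the extracellular matrix were higher as well. Of 20 collagen genes 13 were higher and 2 lower, 11 with no overlap (10 and 0 in the 9-mouse comparison, 4 and 0 with the liver covariate). With median centring 0 were lower. Col1a1, of the main fibrous collagen, lay at 10.12 to 10.68 (median 10.24) with fish oil and 11.01 to 11.46 (median 11.15) with lard, and Col12a1, which binds such fibres, rose by 1.35 ± 0.24 (adjusted p = 0.0001). Of 28 genes of matrix remodelling 15 were higher and 0 lower (12 and 0 in the 9-mouse comparison, 3 and 1 with the liver covariate). Lox, which crosslinks collagen, lay at 9.42 to 9.49 (median 9.44) and 10.40 to 10.72 (median 10.69). The gelatinase Mmp2 rose by 1.56 ± 0.19 (adjusted p = 1.1e-06) and Adam8, a metalloprotease of myeloid cells, by 1.59 ± 0.27 (adjusted p = 4.7e-05).

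Antioxidant genes were called about as often as all genes. Of 32 genes of antioxidant defence and detoxification 7 were higher and 8 lower (6 and 6 in the 9-mouse comparison, 2 and 5 with the liver covariate). That is 46.9% of the list, against 47.5% of all genes tested. Besides Gsta4, the transferase Gsta3 fell from a range of 11.06 to 11.44 (median 11.22) with fish oil to one of 9.16 to 9.60 (median 9.43) with lard, 3.5-fold lower, and the microsomal transferase Mgst3 changed by -1.04 ± 0.15 (adjusted p = 1.1e-05). Gclm, the modifier subunit of the enzyme that starts glutathione synthesis, rose by 0.69 ± 0.11 (adjusted p = 2.8e-05) with no overlap, and Srxn1, which repairs peroxiredoxins, by 0.59 ± 0.15 (adjusted p = 0.00214); both were picked after their values were seen. Nqo1, a common reporter of the NRF2 pathway, changed by -0.08 ± 0.13 (adjusted p = 0.592) and Hmox1, heme oxygenase, by 0.29 ± 0.22 (adjusted p = 0.286). The core of the antioxidant element, TGACNNNGC, stands in the windows of both Gsta3 and Gclm, which moved in opposite directions. Their 250 bases before the start are chr1:21240335-21240584 and chr3:122245307-122245556 (RefSeq, GRCm38.p6, both on the plus strand), with the match in capitals.
Gsta3: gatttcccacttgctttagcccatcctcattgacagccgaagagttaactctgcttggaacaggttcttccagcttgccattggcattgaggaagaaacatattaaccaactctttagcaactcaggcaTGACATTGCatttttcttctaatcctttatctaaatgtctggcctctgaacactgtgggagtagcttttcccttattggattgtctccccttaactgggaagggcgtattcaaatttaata
Gclm: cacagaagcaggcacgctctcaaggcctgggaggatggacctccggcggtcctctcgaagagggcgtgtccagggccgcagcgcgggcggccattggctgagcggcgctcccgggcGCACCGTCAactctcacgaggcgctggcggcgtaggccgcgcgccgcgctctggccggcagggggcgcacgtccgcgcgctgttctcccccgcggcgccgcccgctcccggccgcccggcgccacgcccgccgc
In Gclm the match is on the opposite strand to the gene. The same letters, searched on both strands, occurred in 8 of the 26 genes of this list with a window and in 15.2% of all genes tested. The sterol element core TCACNCCAC was in 1 of 17 cholesterol genes and 1.4% of all, and CCAAT in 16 of the 17.

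Stress, clock and early response genes were mixed. Of 22 genes of the unfolded protein and amino acid responses 8 were higher and 7 lower (7 and 4 in the 9-mouse comparison, 5 and 6 with the liver covariate). Asns, asparagine synthetase, lay at 10.97 to 11.21 (median 11.05) with fish oil and 10.29 to 10.51 (median 10.48) with lard, and its activator Atf4 changed by -0.27 ± 0.06 (adjusted p = 0.00069), while the chaperone partner Dnajb9 and Shmt2, of mitochondrial one-carbon metabolism, rose by 0.64 ± 0.07 (adjusted p = 3.6e-07) and 0.70 ± 0.08 (adjusted p = 4.9e-07). Hspa5, the main chaperone of the endoplasmic reticulum, changed by 0.10 ± 0.06 (adjusted p = 0.204). Of 17 clock genes 2 were higher and 5 lower (2 and 2 in the 9-mouse comparison, 3 and 2 with the liver covariate), or 41.2% called against 47.5% of all genes tested. Dbp, an output gene of the clock, lay at 8.18 to 9.19 (median 8.67) and 9.45 to 10.23 (median 9.70), Bhlhe40 rose by 0.99 ± 0.15, and the activator Arntl, BMAL1, changed by -0.59 ± 0.17 (adjusted p = 0.00656). The sources used here do not give the time of day at which each mouse was taken. Of 19 immediate early genes 4 were higher and 8 lower (4 and 2 in the 9-mouse comparison, 0 and 4 with the liver covariate), with Fos at 7.39 to 7.99 (median 7.54) with fish oil and 8.16 to 9.07 (median 8.79) with lard and Nr4a3 at 6.67 to 7.84 (median 7.16) and 6.33 to 6.65 (median 6.37). Of 10 genes that glucocorticoids induce 0 were higher and 3 lower (0 and 1 in the 9-mouse comparison, 0 and 1 with the liver covariate), with 5 lower without fish oil-fed mouse 1. Called were 30% of this list, against 47.5% of all genes tested.

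The liver list as a covariate ended the call of 79 of the 177 genes named here that had passed. Among immune genes it was lost for Adam8, Arg1, Atp6v0d2, Blnk, C5ar1, Ccl22, Cd163, Cd72, Cnr2, Cpa3, Cxcl12, Cxcl9, Cxcr2, Fcgr1, Folr2, Il1rn, Itgax, Mrc1, Nlrc4, S100a9, Stap1, Timd4, Tnf, Trem2, Vav1 and Hpgds. Among genes of fat cells, lipids and glucose it was lost for Acaca, Adipoq, Cebpa, Cidea, Dhcr7, Fasn, Ffar2, Ffar4, G0s2, Lep, Mogat1, Mogat2, Nnat, Pck1, Plin4, Retn, Rxra, Slc2a1, Thrsp and Ces1d. In mitochondria and amino acid breakdown this held for Acadvl, Atp5k, Bckdha, Cpt2, Dbt, Eci1, Etfa, Pccb and Pdk2, among liver transcripts and plasma proteins for Acsm3, Ahsg, Ces1c, Ces1f, Cyp2e1, Cyp4a10, Cyp4a14, Fgb, Fgg, Mug1, Mup3, Orm3 and Pzp, and otherwise for Cd34, Col12a1, Fap, Fos, Gclm, Gla, Gpihbp1, Pdgfra, Serpinb9b, Slc5a7 and Srxn1. In 36 of the 79 the change with the covariate was at least as large as the change without it divided by 1.5, as for Nlrc4 (1.04 without and 1.09 with it), Cxcl9 (-0.94 and -0.89), S100a9 (-0.79 and -0.88), Retn (-0.86 and -0.81) and Pdgfra (0.62 and 0.75), while the standard error was wider, and in the other 43 it was smaller. Their adjusted p with the covariate was 0.05 to 0.987. For 10 more genes the sign turned: Alb, Fabp1, Hamp, Kng1, Nfkbib, Pdha1, Ppara, Scp2, Serpina1c and Ttr, of which Fabp1 passed in the opposite direction (1.55, adjusted p = 0.0486). The covariate differs between the diets with no overlap, so that the effect of diet and that of liver transcripts cannot be told apart in these calls. Among the lost calls Ahsg, Cyp2e1, Fgb and Fgg belong to the liver list itself. Among the turned signs Alb, Kng1, Serpina1c and Ttr do too. These genes are part of the covariate, so their loss with it is no test.

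**Figure D4:**
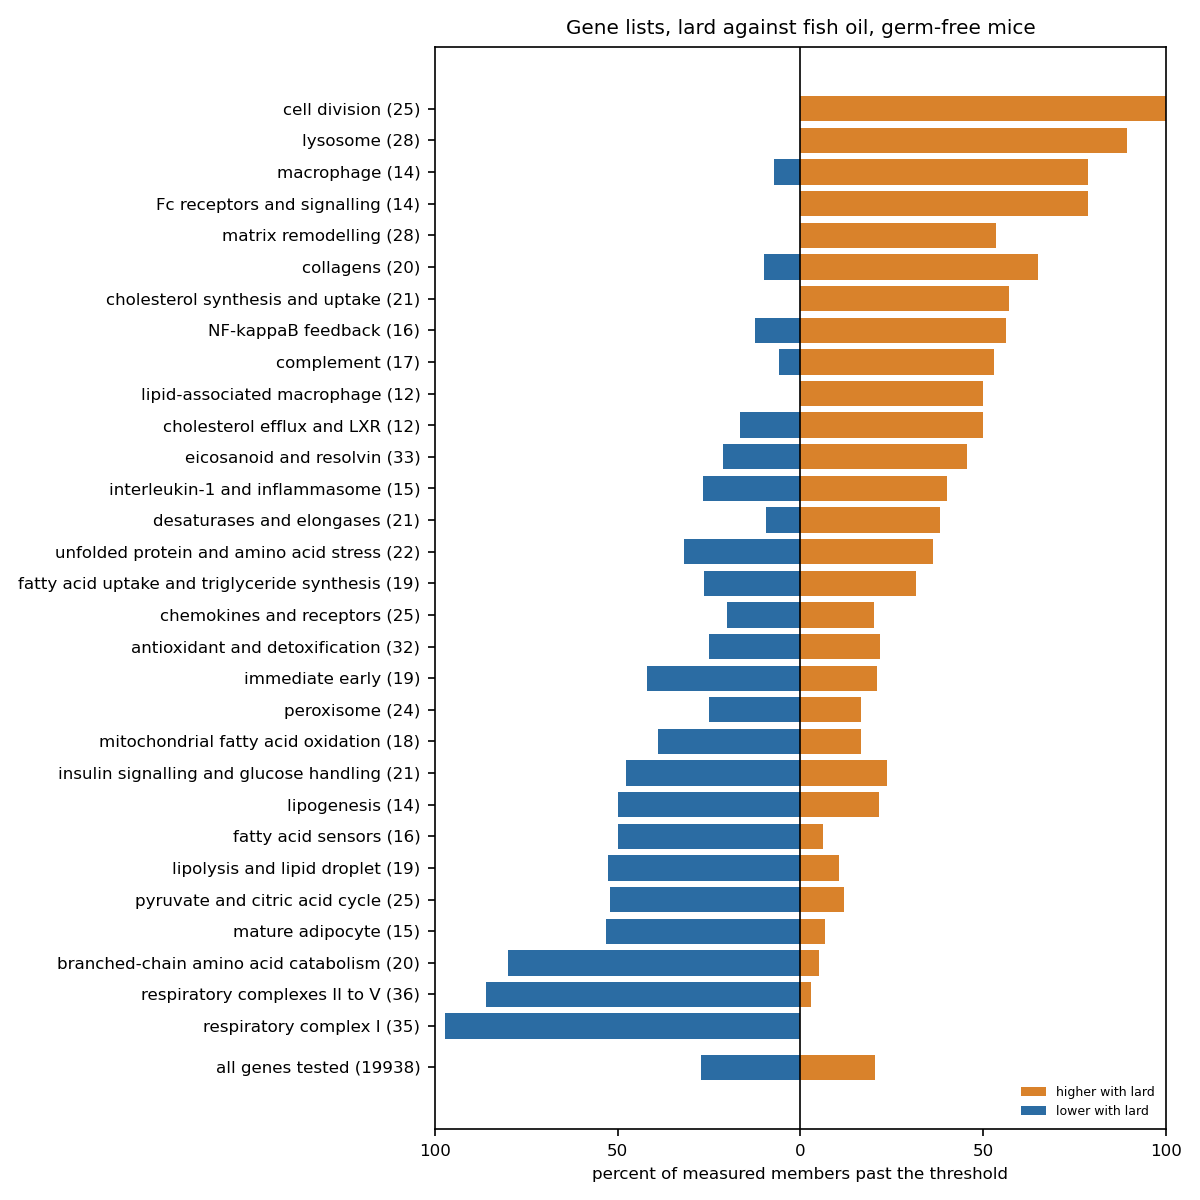
Share of the measured members of 30 gene lists that were higher (right, orange) or lower (left, blue) with lard in germ-free mice, in percent of the list, with the number of members behind each name and all genes tested at the bottom. All 25 cell division genes and 25 of 28 lysosomal genes were higher, 34 of 35 complex I genes were lower, and among all genes 20.4% were higher and 27.1% lower.

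Whether the diet effect of germ-free mice differed from that of conventional mice was tested as the difference of both effects. It passed in 1435 of 19938 genes (7.20%), in 874 with the germ-free effect above the conventional one and in 561 with it below. In conventional mice 6178 genes (31.0%) differed by diet. Of the 9468 genes called in germ-free mice, 1098 also differed by bacterial status. The 10 largest such differences among the genes ranked were all liver transcripts, from -5.42 for Serpina1c to -2.61 for Pzp, and 19 of the 24 of the liver list passed. Of the 20 genes with the largest rises Oxtr was the 1 that differed by status, with a rise of 3.34 in germ-free and 1.78 in conventional mice, a difference of 1.55 ± 0.29 (adjusted p = 0.00275). The count was 225 in the 9-mouse comparison and 925 without lard-fed mouse 4 alone.

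Energy metabolism genes differed in 1 direction. In the citric acid cycle and pyruvate list 8 of 25 differences passed and all had the germ-free effect above the conventional one. Genes of these lists not named above were picked after their values were seen. Ogdh, of the 2-oxoglutarate dehydrogenase, changed by 0.31 in germ-free and -0.29 in conventional mice (difference 0.60 ± 0.11, adjusted p = 0.00297), and Suclg2, a succinyl-CoA ligase subunit, by 0.31 and -0.54 (difference 0.85 ± 0.20, adjusted p = 0.011). For Dld, shared by the dehydrogenase complexes, the values were 0.03 and -0.65 (difference 0.69 ± 0.14, adjusted p = 0.00603), and for Pdha1 -0.29 and -0.90 (difference 0.61 ± 0.14, adjusted p = 0.0113). None of these 4 differences passed in the 9-mouse comparison (adjusted p from 0.0538 to 0.132), and all 4 passed with the liver covariate. The diet change of Suclg2 and Dld in germ-free mice itself did not pass (adjusted p = 0.0672 and 0.787). That of Suclg2 passed on the germ-free arrays alone (0.31, adjusted p = 0.0129), with median centring (0.37, adjusted p = 0.0397), with array weights and without fish oil-fed mouse 6. With the liver covariate both passed, at 0.78 for Suclg2 and 0.51 for Dld (adjusted p = 0.0167 and 0.0152). Pdha1 had an adjusted p of 0.0524 without lard-fed mouse 3 and 0.0945 with median centring. Ogdh did not pass in the 9-mouse comparison (change of 0.18, adjusted p = 0.154). The peroxisome list had 7 such differences of 24, led by Pex19 (difference 0.81 ± 0.16, adjusted p = 0.00337), which passed in the 9-mouse comparison (adjusted p = 0.0179).

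Fatty acid synthesis followed the same pattern, with 4 of 14 differences past the threshold, all with the germ-free effect above. Me1 and Elovl6 were picked after their values were seen. Me1, malic enzyme, which supplies NADPH, rose by 0.39 in germ-free and changed by -0.39 in conventional mice (difference 0.78 ± 0.14, adjusted p = 0.00186). Acaca changed by -1.07 and -1.87 (difference 0.80 ± 0.23, adjusted p = 0.0341), and the elongase Elovl6, outside that list, by 0.26 (adjusted p = 0.21) and -0.96 (difference 1.22 ± 0.24, adjusted p = 0.00443). In the 9-mouse comparison the differences of Me1 and Elovl6 passed (adjusted p = 0.0325 and 0.039) and that of Acaca did not (adjusted p = 0.169); the rise of Me1 itself was 0.29 there and did not pass (adjusted p = 0.0776). Lss differed too, with 1.24 and 0.53 (difference 0.72 ± 0.18, adjusted p = 0.0159), as did the receptor Ffar4, at -0.44 and -0.95 (difference 0.51 ± 0.16, adjusted p = 0.0464); neither passed there (adjusted p = 0.178 and 0.0874).

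Chemokines differed the other way. In 6 of 25 the germ-free effect was below the conventional one. Cxcl10, Cxcl12, Ccl8, Ccl7 and Ccl22 were picked after their values were seen. Cxcl10, an interferon-induced attractant of T cells, changed by 0.12 (adjusted p = 0.659) in germ-free mice and 1.39 in conventional mice (difference -1.27 ± 0.32, adjusted p = 0.0163), and Cxcl12, which holds leukocytes in tissue, by 0.32 and 0.99 (difference -0.66 ± 0.14, adjusted p = 0.00499). Ccl8 and Ccl7, attractants of monocytes, changed by -0.93 and -0.10 in germ-free mice (adjusted p = 0.0526 and 0.786) and by 1.08 and 1.29 in conventional mice (difference -2.01 ± 0.55, adjusted p = 0.0287 for Ccl8 and difference -1.39 ± 0.41, adjusted p = 0.0375 for Ccl7). The germ-free change of Ccl8 passed with a replicate block (-0.93, adjusted p = 0.0448), on the germ-free arrays alone, with array weights, with the low-value filter, without fish oil-fed mouse 1 or 6 or lard-fed mouse 6 (adjusted p from 0.0126 to 0.0464), and with the liver covariate (-1.98, adjusted p = 0.0337), where that of Ccl7 passed as well (-1.20, adjusted p = 0.0497). Ccl22 went in opposite directions, with -0.35 and 0.43 (difference -0.77 ± 0.14, adjusted p = 0.00243), as did the interleukin-4 receptor Il4ra with -0.39 and 0.52 (difference -0.91 ± 0.16, adjusted p = 0.00166). In the 9-mouse comparison the germ-free falls of both were smaller and did not pass (-0.21, adjusted p = 0.188 for Ccl22 and -0.34, adjusted p = 0.0764 for Il4ra). Il1a and Nfkbia, lower with lard in germ-free mice, changed by 0.06 and 0.00 in conventional mice (difference -1.18 ± 0.22, adjusted p = 0.00271 for Il1a and difference -0.58 ± 0.12, adjusted p = 0.0049 for Nfkbia). In the 9-mouse comparison the differences of Cxcl12, Ccl22, Il4ra and Il1a passed (adjusted p from 0.0163 to 0.038), and those of Cxcl10, Ccl8, Ccl7 and Nfkbia did not (adjusted p from 0.0749 to 0.181). The difference passed for 1 of 14 macrophage markers, 1 of 25 cell division genes, 0 of 28 lysosomal genes and 1 of 35 complex I genes, which does not show that their diet effects were equal in both kinds of mice.

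**Figure D5:**
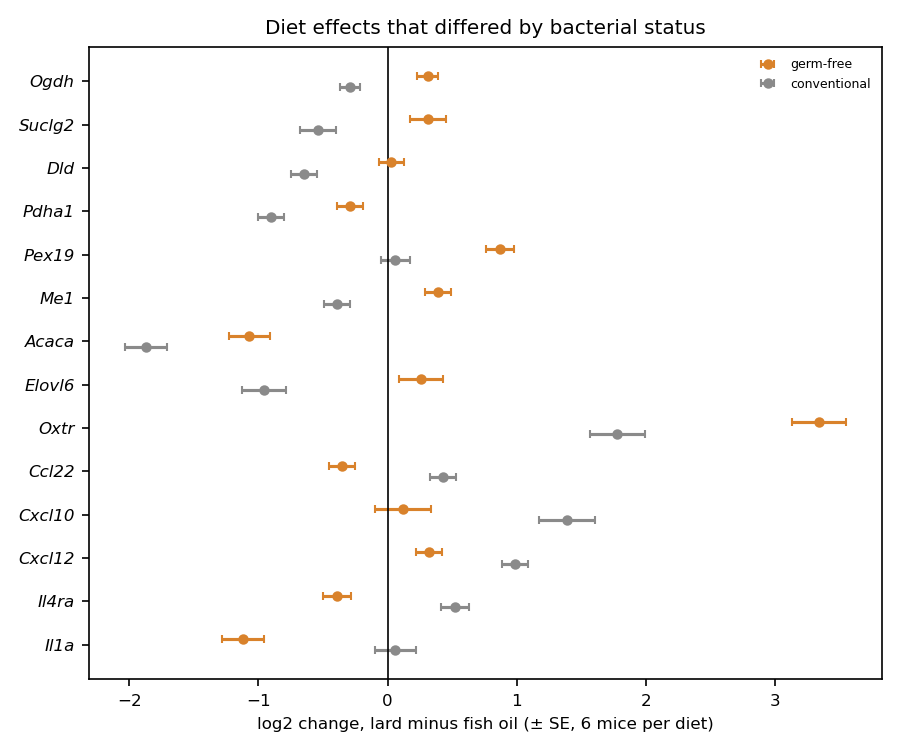
Log2 change, lard minus fish oil, with its standard error, in germ-free (orange) and conventional (grey) mice for 14 genes whose diet effects differed by bacterial status, 6 mice per diet and status. In germ-free mice the citric acid cycle, peroxisome and lipid synthesis genes and Oxtr lie to the right of their conventional values, and the chemokine and other immune genes to the left.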

How the data were processed

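The data were one-colour Affymetrix whole-transcript arrays of epididymal fat, 6 mice in each of 4 groups. The authors deposited log2 signals; per the submitters' processing notes these come from RMA. Its version, the array annotation and any removal of arrays are things the sources used here do not state. RMA adjusts background, brings arrays to a common distribution and summarises probes, so a shift of total RNA per cell cannot be seen. The arrays' medians still differ slightly between diets. Of 35556 probe sets, 21789 had 1 gene symbol in the platform annotation, 1621 several and 12146 none; the last 2 kinds were left out. Of the 21789, 21698 matched RefSeq by Entrez number, which updated the symbol. The brightest probe set stood for each of 19938 genes.

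limma 3.58.1 (R 4.3.3) fitted the 4 group means on all 24 arrays (lmFit, eBayes), with contrasts for diet in germ-free mice, in conventional mice and their difference, and Benjamini-Hochberg adjustment. No pair of arrays was identical, and mice within a germ-free group correlated at 0.985 to 0.995 over all probe sets. The scripts were tested on simulated data. The 52 gene lists hold 977 entries, of which 912 were measured and 26 genes stand in several lists. The members and lists were chosen with earlier results of these data known. The text names the 20 largest rises and falls, up to 4 passing members per list with the largest changes, a fixed panel of defining genes, and up to 10 genes whose diet effect differed by bacterial status. Predicted, clone, olfactory, vomeronasal, receptor segment and similar names were left out of the ranked rises, falls and differences by status. Genes outside this rule are said to be picked after their values were seen. Alternatives were another scaling, a filter on dim genes, the mean of probe sets, germ-free arrays alone, a replicate block, array weights, trend and robust priors, the liver list as a covariate, lard-fed mice 2, 4 and 5 left out, and each mouse left out. Promoter windows come from RefSeq (GRCm38.p6) and were matched by gene for 15614 of the genes tested.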

Additional observations from a re-analysis of the deposited data

Results flagged for a closer look

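Dixon's test was run on 398 sets of 6 mice, 1 per diet for each gene printed and for a few of the lists. In 21 sets (5.28%) 1 mouse was set apart from the other 5 by more than the critical value. The remaining lists were not tested in this way. Chance gives about 1 in 20. A mouse stood far above the others in the mean of the list intestinal epithelium in lard (9.37, group median 6.49), the mean of the list epididymis in fish oil (5.68, group median 5.17), Acaa2 in fish oil (11.60, group median 11.46), Alox15 in fish oil (9.30, group median 7.91), Cd3e in lard (8.31, group median 7.60), Cxcl9 in lard (11.03, group median 9.74), Fabp2 in fish oil (6.04, group median 5.03), Nqo1 in lard (7.67, group median 6.87), Ptgs2 in fish oil (7.78, group median 7.00) and Srxn1 in fish oil (9.47, group median 9.09). A mouse stood far below the others in Cnr2 in fish oil (6.33, group median 6.81), Cxcl9 in fish oil (10.48, group median 10.92), Fam13a in fish oil (11.78, group median 12.09), Ffar2 in lard (8.76, group median 9.14), Lox in lard (10.40, group median 10.69), Mpc1 in lard (11.22, group median 11.53), Nfkbib in fish oil (9.98, group median 10.22), Ogdh in fish oil (11.21, group median 11.49), Pccb in fish oil (10.07, group median 10.31), Phyh in lard (10.28, group median 10.50) and Pltp in lard (12.89, group median 13.07). The mouse set apart on the intestinal list was lard-fed mouse 4.

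The diet effect differed between germ-free and conventional mice, by limma's test of the difference itself at an adjusted p under 0.05, for 45 of the genes printed. Among liver transcripts and liver enzymes the germ-free minus the conventional effect was -5.42 for Serpina1c, -4.33 for Alb, -4.11 for Mup3, -3.45 for Ahsg, -3.29 for Fgb, -3.15 for Fabp1, -3.12 for Ttr, -3.01 for Apoa2, -2.86 for Fgg, -2.61 for Pzp, -2.57 for Kng1, -2.37 for Hamp, -2.24 for Mug1, -1.97 for Ces1c, -1.75 for Cyp4a14 and -1.25 for Cyp4a10. Among the other genes printed it was positive at 0.30 for Acaa2, 0.80 for Acaca, 1.13 for Acot2, 0.32 for Acox3, 0.86 for Acss2, 0.34 for Asns, 1.06 for Cidea, 0.69 for Dld, 1.22 for Elovl6, 0.51 for Ffar4, 0.72 for Lss, 0.78 for Me1, 0.60 for Ogdh, 1.55 for Oxtr, 0.72 for Pdgfra, 0.61 for Pdha1, 0.81 for Pex19 and 0.85 for Suclg2, and negative at -0.65 for Arg1, -0.40 for Atf4, -0.77 for Ccl22, -1.39 for Ccl7, -2.01 for Ccl8, -1.27 for Cxcl10, -0.66 for Cxcl12, -1.18 for Il1a, -0.91 for Il4ra, -0.58 for Nfkbia and -0.70 for Nr4a3.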

How the results depend on the processing

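The number of genes that differed by diet in germ-free mice, 9468, was within 1.5 times of that value under 8 of 10 alternatives run on all mice or a fixed set, and was 4936 with the liver covariate and 5278 without lard-fed mice 2, 4 and 5. Higher calls numbered 2226 with the covariate, against 4072. Lower calls, 5396 in the deposited scaling, were 2710 with the covariate, 3260 without the genes under the 40th percentile of mean level, 3313 with median centring and 2387 without the 3 mice. The 1435 differences by bacterial status became 2526 with array weights and 225 without the 3 mice. Calls among list members, 528, were 251 with the covariate. Leaving out 1 of the 12 mice gave 8067 to 9769 genes (3748 to 4125 higher, 4319 to 5644 lower), 486 to 557 list members and 925 to 1630 differences by status, the lowest without lard-fed mouse 4. The low-value filter removes dim genes by construction, and 3 fewer mice widen the errors; for the other settings the cause was not tested. Of 177 named genes called, the covariate turned the sign of 10: Alb (0.14), Fabp1 (1.55), Hamp (0.11), Kng1 (0.13), Nfkbib (-0.03), Pdha1 (0.12), Ppara (0.40), Scp2 (0.14), Serpina1c (0.23) and Ttr (0.46). Of these, Alb, Kng1, Serpina1c and Ttr are part of the covariate. Without the 3 mice 26 lost their call, with adjusted p from 0.0559 to 0.731, and none turned; the change of 19 of them stayed at least as large as the original divided by 1.5. Quantile normalization ended 4 calls, median centring 5, the germ-free arrays alone 4 and array weights 1.

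With the mouse number as a replicate block 9253 genes differed by diet, 1131 by status, and 529 list members passed; 0 named genes lost their call and Ccl8 gained 1. Same-numbered mice did not deviate together (correlations of -0.12 to 0.12, 2 of 6 over 0.1; 1 of 6 fish oil-fed mice correlated best with its own number), so the numbers were not used to pair mice. Precision is limited by the number of arrays, and signal over background is not given by these values.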

Other observations

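Gene families were also counted by their names, chosen after their values were seen. Of the proteins of the mitochondrial ribosome, which makes the respiratory chain subunits encoded in mitochondria, 56 of 77 were lower and 3 higher (median change -0.35). The change ran from -1.02 for Mrps18c to 0.37 for Mrpl19. Of the proteins of the cytosolic ribosome 40 of 53 were lower and 0 higher (median change -0.26), and of the small nuclear ribonucleoproteins of splicing 7 of 10 were lower and 1 higher. With median centring the lower counts of the 3 families were 48, 32 and 6, without lard-fed mice 2, 4 and 5 35, 26 and 6, and with the liver covariate 25, 30 and 6. Among all genes tested 27.1% were lower. Of the Rab proteins, which steer vesicles between compartments, 29 of 59 were higher and 6 lower, against 20.4% higher among all genes, with 7 higher under the liver covariate. Of the Hox genes, which keep the positional identity of a tissue, 22 of 38 were lower and 0 higher, with 17 lower after median centring and 6 without lard-fed mice 2, 4 and 5. They are dim, where most calls were lower: the median of their mean signals over all arrays was 6.95 log2.

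Within each diet the mean of the macrophage list and that of the adipocyte list went in opposite directions across mice. Over the 6 lard-fed mice Pearson's r was -0.99 (exact permutation p = 0.00139, 0.00278 after Benjamini-Hochberg adjustment over the 2 relations computed). By rank the mice were in exactly opposite order (Spearman's rho, exact permutation p = 0.00278, the smallest that the ranks of 6 mice allow, adjusted 0.00556). Without the 2 mice farthest from the median r was -0.98. Over the 6 fish oil-fed mice r was -0.76 (exact permutation p = 0.05, adjusted 0.05), rho -0.89 (exact permutation p = 0.0333, adjusted 0.0333) and r without 2 mice -0.88. All p-values are two-sided. Both lists come from the same arrays of whole tissue, in which shares of RNA sum to a fixed total, and the relation was chosen after the values were seen.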
